A study of Mus musculus with 12 samples.

Results

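The germline Tudor-domain genes Tdrd1, Tdrd5, Tdrd6, Tdrd7, Tdrd9, Tdrd12, Tdrkh, Stk31 and Rnf17 were taken by symbol from the deposited expression table, which held all 9 of them among 28643 usable gene symbols. The table covers round spermatids (RS), the haploid cells that follow meiosis, sorted by flow cytometry under cycloheximide from 8-week-old male mice. The control genotype, Igf2bp3+/-, carries 1 mutant allele of the RNA-binding protein gene Igf2bp3, and the knockout genotype, Igf2bp3-/-, carries the Cas9-made frameshift on both alleles. A wild-type group was not analysed here. For each genotype, 3 libraries were made from total RS RNA (RNA-seq) and 3 from RNA in the polysome fractions, carrying at least 4 ribosomes, of a sucrose gradient of 5% to 50% (RNC-seq), which gives 12 libraries. Knockout males of the colony ranged in fertility, and by the study's methods those with impaired fertility were chosen for these experiments. The deposited columns call the control WT, whereas the sample titles and genotype labels give Igf2bp3+/-, which is used here. By the methods, RS came from single mice and part of each extract became the RNA-seq input while the rest went onto the gradient, so RNA-seq and RNC-seq libraries share animals. The labels do not say which libraries share an animal, and p-values, which treat libraries as independent, measure the spread between them. In sorted bulk RNA, fewer cells of a type and less RNA per cell cannot be told apart.

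Tudor domains fold around methylated arginine or lysine, and the germline proteins of this family bind PIWI proteins whose arginines have been dimethylated. They gather PIWI proteins, their small RNAs (piRNAs), RNA helicases and mRNAs in cytoplasmic granules, the intermitochondrial cement of spermatocytes and the chromatoid body of RS. Several of them are needed for piRNA production, transposon silencing, spermiogenesis and male fertility. FPKM, the unit of the table, is read density per length of transcript and per library size, so that levels can be compared between genes. RNC-seq over RNA-seq is called polysome loading below, and its change between genotypes is the change in translational efficiency (TE).

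The sequence around the start codon is where a scanning ribosome begins, and 5 of the 9 are printed. Tdrd6, Tdrd9 and Tdrd12 lie at the ends of the loading order in Igf2bp3+/-, Rnf17 differs in start context and Tdrd7 had the highest level on polysomes. The sequences run 5′ to 3′ from the representative transcript of GENCODE M21 on GRCm38, with the start codon in capitals between 12 bases of leader and 15 bases of coding sequence.
Tdrd6: ttggccgcagccATGagttcgactccgggg
Tdrd9: taggcaccgaggATGttgcgcaagctcacg
Rnf17: ctgagaggagcaATGgcggcagaggcttcg
Tdrd7: ctcgtggatacaATGaggagccagcagtct
Tdrd12: ATGttcgaggtcctggtg
Tdrd12 is annotated with no leader in that transcript, so its line starts at the start codon. Of the 9 genes, 8 had a purine 3 bases before the start codon, a feature of 79.6% of 21448 coding genes. Rnf17 was the single member with G right after the start codon, a base found there in 48.8% of coding genes, and thus the single member with both features, which 38.9% of coding genes share. At least 1 further ATG lay in the leader of 5 members, against 50.6% of coding genes, with 7 in Tdrd1, the highest count among the members.

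The members are long genes. Coding length was 6408 nt in Tdrd6, 4923 nt in Rnf17, 4152 nt in Tdrd9, 3651 nt in Tdrd12, 3519 nt in Tdrd1, 3360 nt in Tdrd7, 3123 nt in Tdrd5 and 3057 nt in Stk31, against a median of 1194 nt over coding genes. Tdrkh, with 1683 nt of coding sequence, was the exception, and it also had the longest 3′ untranslated part of the members, at 3893 nt against a median of 746 nt. Tdrd6 stood at the other end with 44 nt. GGAC, which contains the core at which m6A, the mark that IGF2BP proteins can recognise, is often set, occurred in this 3′ part of 3 members, namely Tdrd1, Tdrd9 and Tdrkh, and of 73.0% of coding genes (sense strand, overlaps with other motifs not removed). Besides Tdrd6, the 3′ parts without it were short in Tdrd5, Tdrd7, Rnf17 and Stk31, at 278, 245, 221 and 149 nt. The representative transcript of Tdrd12 ends with its stop codon, so it had no 3′ part to search, and a match of these letters is not a modified site. Over whole transcripts GGAC occurred 6.1, 4.8, 4.7 and 4.6 times per kb in Tdrd6, Tdrd5, Tdrd7 and Tdrd9. The other members had 1.9 to 3.8 per kb, and the median over coding genes was 4.0.

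On GRCm38, Tdrd6 lies at chr17:43615335-43630299, Tdrd7 at chr4:45965334-46034761, Rnf17 at chr14:56402581-56525032, Tdrd9 at chr12:111971559-112068854 and Tdrd12 at chr7:35469098-35537745. Tdrd1 lies at chr19:56826209-56870012 and Tdrd5 at chr1:156255296-156303664. Stk31, at chr6:49395604-49469501, is a chromosomal neighbour of the targeted gene: 180646 bases and 3 coding genes (Ccdc126, Fam221a and Tra2a) separate it from Igf2bp3. Tdrkh, at chr3:94413273-94434668, shares 36.7% of its exonic bases with Oaz3 on the opposite strand. Oaz3, an antizyme of polyamine metabolism made in spermatids, measured 189.8, 150.6, 163 and 173 times the mean FPKM of Tdrkh in Igf2bp3+/- RNA-seq, Igf2bp3-/- RNA-seq, Igf2bp3+/- RNC-seq and Igf2bp3-/- RNC-seq. Whether reads were assigned by strand is not stated, so the level of Tdrkh is uncertain over the shared bases.

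The 8 round spermatid markers were all expressed, with a summed FPKM of 959 to 1109 in Igf2bp3+/- and 1159 to 1379 in Igf2bp3-/- RNA-seq, ranges that do not overlap, and of 1283 to 1506 and 1451 to 1781 in RNC-seq. All 8 had a log2 change above 0 in both assays and 0 passed the test (limma). Over all genes tested, 56% had a log2 change above 0 in RNA-seq and 65% in RNC-seq. The 8 elongating spermatid markers summed to between 9406 and 12112 in the RNA-seq libraries, with 2 above 0 in log2 change. In RNC-seq they summed to 12528 to 14965 in Igf2bp3+/- and 11522 to 22351 in Igf2bp3-/-, with 7 above 0, and 0 passed in either assay. Tnp1, Tnp2, Prm1 and Prm2 are in this list, and the study measured their mRNAs by qPCR in sorted RS. These sums therefore need not come from elongating cells. In RNA-seq the 8 spermatocyte markers summed to between 210.4 and 245 and the 8 spermatogonia markers to between 8.37 and 11.5. Of 6 Sertoli markers measured, no RNA-seq library summed to more than 0.936. The 7 Leydig markers moved with genotype: they summed to 15.4 to 22.6 in Igf2bp3+/- and 48.6 to 55.0 in Igf2bp3-/- RNA-seq, where 4 of them passed the test, and to 6.75 to 14.3 and 51.5 to 103 in RNC-seq, where 1 passed. The 7 blood and macrophage markers summed to 7.13 to 7.61 in the control and 14.0 to 15.8 in the knockout RNA-seq, where 2 passed. In RNC-seq they summed to 11.6 to 14.7 and 16.7 to 34.0, where 0 passed. The 5 peritubular markers summed to 1.55 to 1.73 in the control and 1.05 to 1.60 in the knockout RNA-seq. In RNC-seq they summed to 0.783 to 1.18 and 1.32 to 2.09, and 0 passed in either assay. The part of any of these markers' cells in the genotype comparisons of the members was not tested. Igf2bp3 itself measured 38.2, 38.6 and 33.4 FPKM in Igf2bp3+/- and 31.7, 32.5 and 31.4 FPKM in Igf2bp3-/- RNA-seq (log2 change -0.20, limma adjusted p = 0.336), and since a frameshift need not lower the mRNA, this level does not check the labels. A single transcript, CT010467.1, took 9.22% to 13.3% of summed FPKM in control RNA-seq libraries and 5.68% to 9.25% in those of the knockout. In RNC-seq it took 15.9%, 19.4% and 18.4% in the control and 8.14%, 11.5% and 14.6% in the knockout, which do not overlap. FPKM is relative to each library, so this share bears on the level of every other gene. Its part in the genotype, TE and loading values of the members was not tested.

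Which members are most abundant in RS was asked first, from total RNA. Tdrd6, the large scaffold of the chromatoid body, measured 157, 183 and 187 FPKM in the Igf2bp3+/- RNA-seq libraries, more than 97.8% of genes expressed there. Tdrd7, a chromatoid body protein with LOTUS and Tudor domains that also acts in the lens, measured 94.8, 99.0 and 106 FPKM in the same libraries. Rnf17, a RING-finger protein of a germ cell granule of its own, measured 47.2, 44.6 and 36.6 FPKM. These 3 genes were the highest in total RNA in both genotypes, and Tdrd6 and Tdrd7 alone made up 67.7% to 75.9% of the summed FPKM of the 9 in each RNA-seq library.

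The helicase-like members came next. Tdrd9, a putative RNA helicase that works with the nuclear PIWI protein in fetal germ cells, measured 20.9, 21.3 and 23.7 FPKM in Igf2bp3+/- RNA-seq. Tdrd12, which joins a helicase-like region to Tudor domains and is needed for secondary piRNA production, measured 14.6, 14.5 and 12.4 FPKM. The remaining 4 members were lower, at 2.74 to 7.45 FPKM in every Igf2bp3+/- RNA-seq library. They were Stk31, which joins a Tudor domain to a kinase-like domain, Tdrkh, which tethers PIWI proteins to mitochondria for trimming of piRNA precursors, Tdrd1, a scaffold of the intermitochondrial cement, and Tdrd5, a LOTUS protein needed for assembly of germ granules.

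The mean FPKM of Tdrd6 (175 ± 16.5, SD, n = 3) was 57.9 times that of Tdrd5 (3.03 ± 0.296) in Igf2bp3+/- RNA-seq. Between neighbours in the order Tdrd6, Tdrd7, Rnf17, Tdrd9, Tdrd12, the 3 libraries of a gene did not overlap those of the next, in either genotype. Stk31, Tdrkh and Tdrd1 followed with means of 6.90, 5.74 and 5.61 FPKM in Igf2bp3+/- RNA-seq, and the libraries of Tdrkh overlapped those of both of the others. Tdrd5 came last in every group, below the libraries of all other members. The order of the means was the same in the 2 genotypes.

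**Figure D1:**
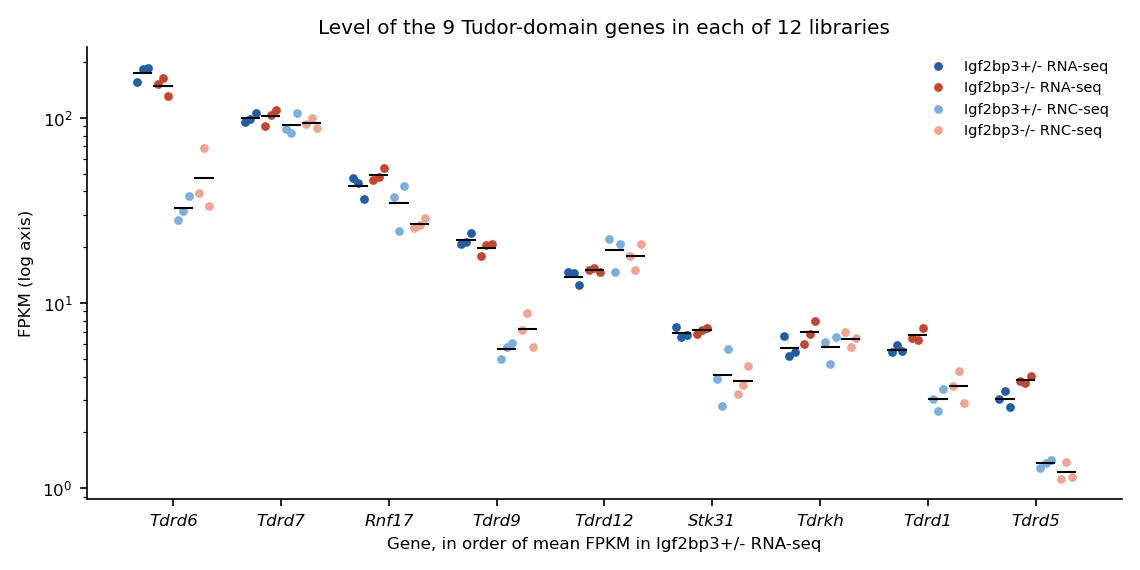
FPKM (log axis) of each of the 9 genes in the 12 libraries, with 1 point per library, black bars at the mean of each group of 3 and colours for genotype and assay. Tdrd6 falls from 131 to 187 FPKM in RNA-seq to between 28.0 and 68.7 FPKM in RNC-seq, whereas Tdrd7 stays between 82.7 and 111 FPKM in all 12 libraries.

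On polysomes the order changed at the top. Tdrd7, at 86.5, 82.7 and 107 FPKM in Igf2bp3+/- RNC-seq, took the first place, and Rnf17 and Tdrd6 followed with overlapping libraries and means of 34.9 ± 9.32 and 32.4 ± 5.15 FPKM (SD, n = 3). Tdrd12, at 19.2 ± 3.94 FPKM, stood above Tdrd9, at 5.63 ± 0.583 FPKM, the reverse of their order in total RNA. In Igf2bp3-/- RNC-seq the means ran Tdrd7 (93.5 FPKM), Tdrd6 (47.0 FPKM), Rnf17 (26.8 FPKM), Tdrd12 (18.0 FPKM) and Tdrd9 (7.25 FPKM), and no 2 neighbours among these 5 overlapped.

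Polysome loading, tested as RNC-seq against RNA-seq within a genotype, asked which of these mRNAs are over- or under-represented on polysomes relative to the average of the library. In Igf2bp3+/- RS, 5 of the 9 members were lower in RNC-seq at an adjusted p under 0.05 (limma, Benjamini-Hochberg over 17942 genes), where 25.1% of all genes tested were lower, and 0 were higher, where 18.6% of all genes were. In Igf2bp3-/- RS, 6 of 9 were lower, against 10.9% of 18456 genes, and 0 were higher, against 10.1%. The median log2 change of the members was -0.80 and -0.90 in the 2 genotypes, beside -0.09 and -0.04 over all genes tested. The members are 9 chosen genes, so these shares describe them. Where libraries of the assays are said below to lie apart, the share of all genes with that pattern was not counted. At an unadjusted p under 0.05 (limma), 9252 genes in Igf2bp3+/- and 6614 in Igf2bp3-/- differed between the assays.

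Tdrd6 had the lowest loading. Its Igf2bp3+/- libraries read 28.0, 31.2 and 38.0 FPKM in RNC-seq, all below the 157 FPKM of the lowest RNA-seq library, a 5.43-fold lower level (log2 change -2.44, 95% interval -2.77 to -2.11, limma adjusted p = 4.06e-05). In Igf2bp3-/- RNC-seq they read 39.3, 68.7 and 33.2 FPKM against 153, 163 and 131 FPKM in RNA-seq, a 3.31-fold lower level (log2 change -1.73, interval -2.30 to -1.15, limma adjusted p = 0.00379). The libraries of the assays lay far apart in both genotypes, and 1.10% and 1.28% of all genes tested had a lower log2 change than Tdrd6.

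Tdrd9 followed, at 4.99, 5.79 and 6.12 FPKM in Igf2bp3+/- RNC-seq against 20.9 to 23.7 FPKM in RNA-seq, 3.86-fold lower (log2 change -1.95, interval -2.27 to -1.63, limma adjusted p = 5.36e-05). In the knockout it read 7.14, 8.84 and 5.76 FPKM in RNC-seq against 18.0, 20.6 and 20.8 FPKM in RNA-seq, 2.74-fold lower (log2 change -1.46, interval -1.90 to -1.01, limma adjusted p = 0.00302). Its assays did not overlap in either genotype. In Igf2bp3+/- the intervals of Tdrd6 and Tdrd9 overlapped each other, and that of Tdrd9 lay below those of all 7 other members.

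Tdrd5 read 1.29, 1.37 and 1.42 FPKM in Igf2bp3+/- RNC-seq against 3.03, 3.33 and 2.74 FPKM in RNA-seq, and 1.13, 1.39 and 1.15 FPKM against 3.78, 3.69 and 4.04 FPKM in Igf2bp3-/-. Its loading was 2.14-fold lower in the control (log2 change -1.10, limma adjusted p = 0.00149) and 2.99-fold lower in the knockout (-1.58, 0.00251). Tdrd1 read 3.05, 2.61 and 3.43 FPKM in control RNC-seq against 5.41, 5.92 and 5.49 FPKM in RNA-seq, 1.83-fold lower (log2 change -0.87, limma adjusted p = 0.00306). In the knockout it read 3.55, 4.30 and 2.87 FPKM against 6.49, 6.31 and 7.29 FPKM, 1.87-fold lower (-0.90, limma adjusted p = 0.0150). Stk31 read 3.87, 2.77 and 5.61 FPKM against 7.45, 6.53 and 6.71 FPKM in the control, 1.74-fold lower (-0.80, limma adjusted p = 0.0267), and 3.21, 3.60 and 4.59 FPKM against 6.78, 7.19 and 7.35 FPKM in the knockout, 1.87-fold lower (-0.90, 0.0129). All 3 genes had RNC-seq libraries wholly below the RNA-seq libraries of the same genotype. The control call of Stk31 was lost without Igf2bp3+/- replicate 1 (limma adjusted p = 0.153) or replicate 2 (0.0957).

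Rnf17 passed the limit in the knockout and not in the control. It read 37.3, 24.6 and 42.7 FPKM in Igf2bp3+/- RNC-seq against 47.2, 44.6 and 36.6 FPKM in RNA-seq, ranges that overlap (log2 change -0.32, interval -0.80 to 0.15, limma adjusted p = 0.242). In Igf2bp3-/- the 25.4, 26.4 and 28.7 FPKM of RNC-seq lay below the 46.4, 48.0 and 53.6 FPKM of RNA-seq (-0.87, interval -1.22 to -0.53, limma adjusted p = 0.00644). The difference between the genotypes is the TE change, which did not pass (log2 change -0.55, interval -1.12 to 0.01, limma adjusted p = 0.708).

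Tdrd7, Tdrkh and Tdrd12 did not pass in either genotype. The log2 change of Tdrd7 was -0.13 (interval -0.43 to 0.17) in the control and -0.12 (-0.47 to 0.23) in the knockout, which bounds it within 1.5-fold of the library average in both. Tdrkh stood at 0.01 (-0.41 to 0.43) and -0.11 (-0.53 to 0.31), within the same bounds. Tdrd12 was the single member whose control RNC-seq libraries, at 22.1, 14.8 and 20.9 FPKM, all lay above its RNA-seq libraries, with a log2 change of 0.45 (interval 0.05 to 0.86, limma adjusted p = 0.0669). That change passed after each library was centred on its median (0.61, limma adjusted p = 0.00613), under quantile normalization, with library weights, in the fit over all 12 libraries and without Igf2bp3+/- replicate 2 (0.67, 0.0226). In the knockout, at 18.0, 15.2 and 20.9 FPKM against 15.1, 15.5 and 14.6 FPKM, the ranges of Tdrd12 overlapped (0.24, interval -0.15 to 0.64).

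The value 0 is the FPKM average of a library and moved with the scaling: centring each library on its median raised the median change of all genes from -0.09 to 0.07 in Igf2bp3+/- and turned the split of calls from 3331 higher and 4503 lower into 4630 higher and 3655 lower. The sign of Tdrd7 in the control turned with it (log2 change 0.028). The 6 knockout calls were all lost without Igf2bp3-/- replicate 1 or replicate 3 (limma adjusted p from 0.0624 to 0.135), fits in which 3 genes and 1 gene of the whole table were called, while the log2 changes of these 6 stayed between -1.62 and -0.70.

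**Figure D2:**
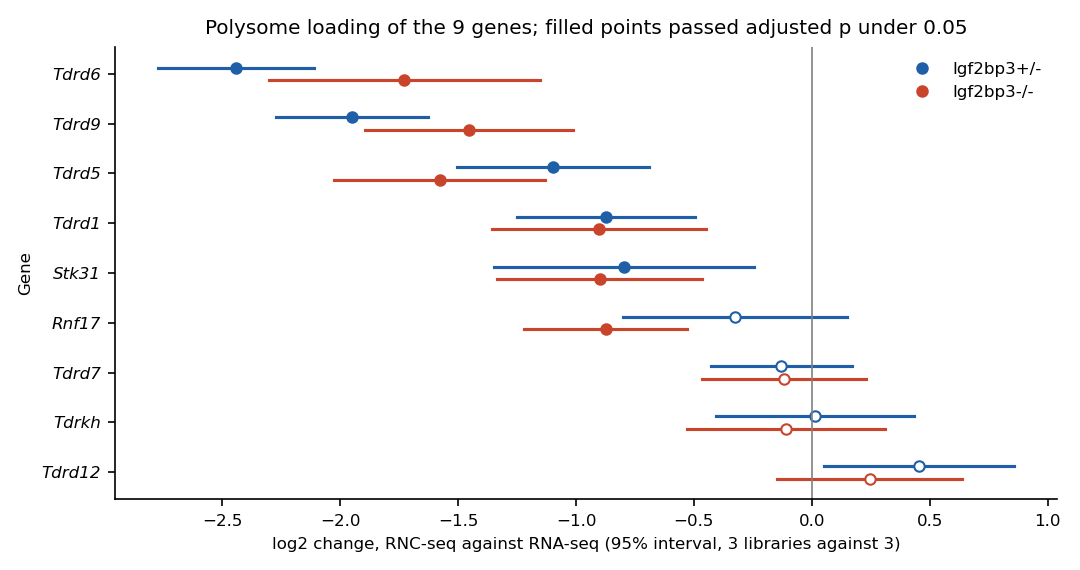
The log2 change of RNC-seq against RNA-seq for the 9 genes in each genotype, with 95% intervals from limma over 3 libraries against 3. Filled points passed an adjusted p under 0.05: Tdrd6, Tdrd9, Tdrd5, Tdrd1 and Stk31 in both genotypes and Rnf17 in the knockout, with Tdrd6 lowest at -2.44 and -1.73.

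Coding length moved with loading over the whole table. Across 12334 genes with a coding transcript, which are not independent replicates and share the 12 libraries and their depth, Spearman's rho between coding length and loading was -0.56 in Igf2bp3+/-, and across 12742 genes it was -0.52 in Igf2bp3-/-. Genes with at least 3000 nt of coding sequence, a length chosen after the values were seen and reached by 8 members, had a median log2 change of -1.11 in the control (n = 1630) and -0.68 in the knockout (n = 1689).

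Set against these long genes, the members fell at both ends. In Igf2bp3+/-, 4.11% of long genes had a lower loading than Tdrd6 and 12.9% a lower loading than Tdrd9. Tdrd5, Tdrd1 and Stk31 lay near the middle, above 50.9%, 62.9% and 66.7% of long genes. Rnf17, Tdrd7 and Tdrd12 lay above 83.4%, 87.9% and 96.4% of them. So the control loading of Tdrd5, Tdrd1 and Stk31 was low against all genes and ordinary against long ones, whereas Tdrd12 was high among long genes. In the knockout Tdrd6 and Tdrd9 held their places, above 4.38% and 10.8% of long genes, and Tdrd5 stood lower, above 7.46%. Tdrd1, Stk31 and Rnf17 also stood lower than in the control, above 36.2%, 36.3% and 37.4%. The log2 changes of Tdrd1 and Stk31 moved little, from -0.87 to -0.90 and from -0.80 to -0.90. The median of the long genes rose from -1.11 to -0.68. Tdrd7 and Tdrd12 stayed high, above 83.7% and 93.2%. The part of coding length in the loading of the members was not tested.

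**Figure D3:**
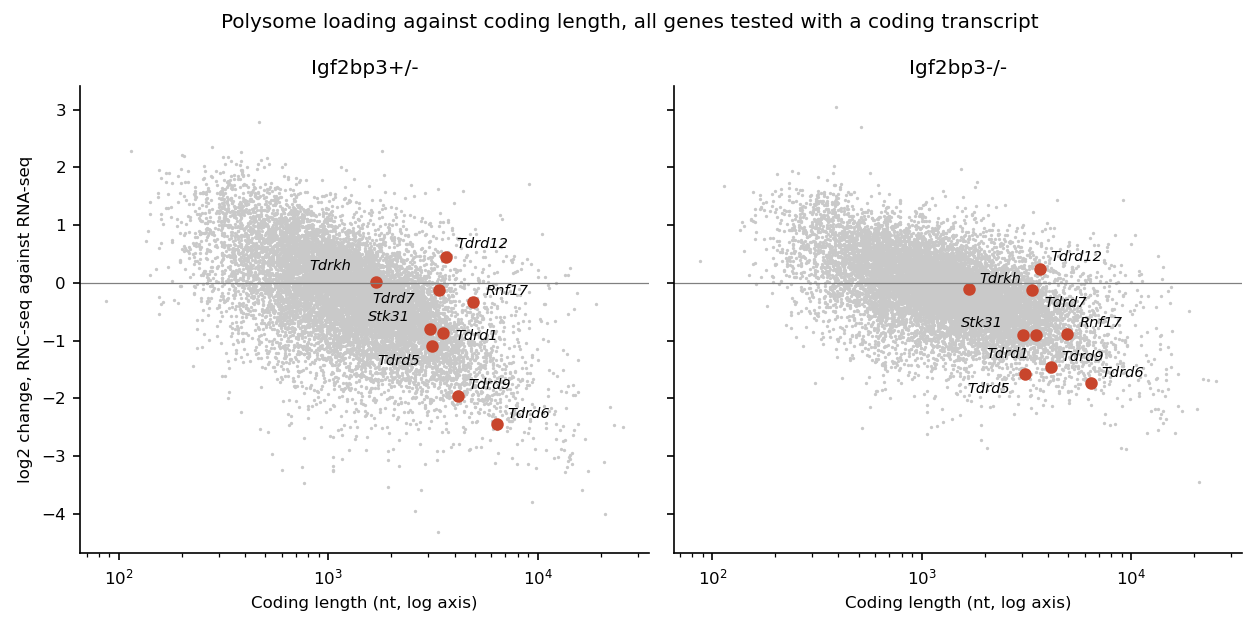
Polysome loading (log2 change of RNC-seq against RNA-seq) against coding length (log axis) for all genes tested with a coding transcript in grey and the 9 members in red, with a panel for each genotype. The grey cloud slopes down (Spearman's rho -0.56 and -0.52), with Tdrd6 and Tdrd9 along its lower part and Tdrd12 high among the long genes.

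Whether loss of Igf2bp3 changed the total RNA of the members was tested between the RNA-seq groups. None of the 9 passed an adjusted p under 0.05 (limma), where 0.256% of 20352 genes did, and the smallest adjusted p was 0.287. At an unadjusted p under 0.05, 1 of 9 passed, Tdrd5, against 15.7% of all genes. The knockout over control ratio ran from 0.849 in Tdrd6 to 1.26 in Tdrd5, and for 7 of the 9 the 95% interval lay within 1.5-fold either way. For 3 members all libraries of a genotype lay on 1 side of the other genotype's, as for 22.7% of all genes. Tdrd5 read 3.03, 3.33 and 2.74 FPKM in the control and 3.78, 3.69 and 4.04 FPKM in the knockout (log2 change 0.33, interval 0.03 to 0.63, limma adjusted p = 0.287). Tdrd1 read 6.49, 6.31 and 7.29 FPKM in the knockout against at most 5.92 FPKM in the control (0.25, interval -0.01 to 0.51), and Tdrd9 at most 20.8 FPKM against at least 20.9 FPKM (-0.15, interval -0.39 to 0.08).

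The highest member, Tdrd6, had a log2 change of -0.24 in total RNA (interval -0.49 to 0.02, limma adjusted p = 0.344), with overlapping libraries. Rnf17 (0.21, interval -0.05 to 0.47), Tdrkh (0.27, -0.07 to 0.61) and Tdrd12 (0.13, -0.11 to 0.36) were above 0. Stk31, the neighbour of Igf2bp3, measured 0.04 (-0.21 to 0.29) and Tdrd7 measured 0.02 (-0.20 to 0.25). Both of these last values turned negative under quantile normalization, to -0.0018 and -0.11.

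In RNC-seq, 0 of 9 members passed an adjusted p under 0.05 (limma), where 0.115% of 19051 genes did, and 0 of 9 had an unadjusted p under 0.05, against 6.48% of all genes. No member had libraries apart between the genotypes, against 11.3% of all genes. Tdrd6 had the largest value, 39.3, 68.7 and 33.2 FPKM in the knockout against 28.0, 31.2 and 38.0 FPKM in the control (log2 change 0.48, interval -0.12 to 1.07, limma adjusted p = 0.808). Its highest reading, 68.7 FPKM, came from knockout replicate 2, and without that replicate the change was 0.17. Tdrd9 stood at 0.34 (interval -0.18 to 0.87), and at 0.19 without the same replicate. Rnf17 was the lowest at -0.34 (interval -0.85 to 0.17). The remaining 6 lay between -0.15 and 0.22, beside a median of 0.13 over all genes. Centring the libraries on their median moved that median to 0.0078 and Tdrd7 from 0.03 to -0.088. RNC-seq was less precise than RNA-seq, since the interval lay within 1.5-fold for 1 member, Tdrd7.

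TE, the interaction of genotype and assay over the 12 libraries, was called for 0 of the 9 members (limma) and for 0.00543% of 18414 genes, which is 1 gene. At an unadjusted p under 0.05, 1 of 9 passed, Tdrd6, against 7.13% of all genes. The RNC-seq over RNA-seq ratio of Tdrd6 means was 0.185 in the control and 0.316 in the knockout. Its limma log2 change was 0.71 (interval 0.03 to 1.39, limma adjusted p = 0.689). Here and below the limma changes come from log2 values and can differ slightly from those of the ratios of mean FPKM. For Tdrd9 the ratio was 0.256 and 0.366 (0.49, interval -0.02 to 1.01). Rnf17 and Tdrd5 pointed the other way: the ratio of Rnf17 was 0.815 and 0.544 (-0.55, interval -1.12 to 0.01) and that of Tdrd5 0.449 and 0.319 (-0.48, interval -1.01 to 0.05). Tdrd12, Tdrkh, Stk31, Tdrd1 and Tdrd7 lay between -0.21 and 0.01. Centring moved the median TE change of all genes from 0.06 to -0.07 and that of Tdrd7 to -0.12. For 2 of the 9, Tdrd1 and Tdrd7, the interval lay within 1.5-fold either way, and for the others it reached past that size.

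**Figure D4:**
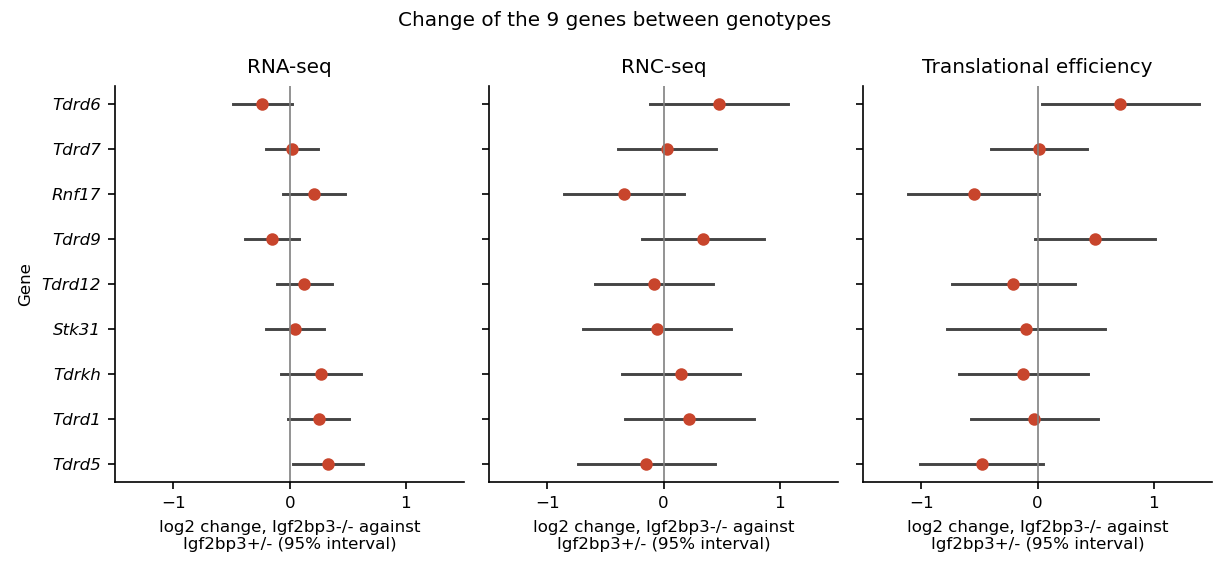
The log2 change of Igf2bp3-/- against Igf2bp3+/- for the 9 genes in RNA-seq, in RNC-seq and in TE, as points with 95% intervals from limma (3 libraries a group). No point passed an adjusted p under 0.05, intervals are narrowest in RNA-seq, and in TE Tdrd6 and Tdrd9 lie at 0.71 and 0.49 while Rnf17 and Tdrd5 lie at -0.55 and -0.48.

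The TE changes also ran with coding length. Over 12669 genes Spearman's rho between coding length and TE change was 0.32, and the median TE change of genes of at least 3000 nt was 0.40. Among 1665 of these long genes with a loading value, the TE change of Tdrd6 lay above 77.2% and that of Tdrd9 above 59.8%. All other long members lay low among the long genes: Rnf17 above 1.08%, Tdrd5 above 1.62%, Tdrd12 above 6.61%, Stk31 above 11.1%, Tdrd1 above 14.8% and Tdrd7 above 17.1%. The TE changes of Tdrd1 and Tdrd7 themselves were -0.03 and 0.01. Knockout RNC-seq replicate 2 stood apart in the relation itself: rho between coding length and the level of a library relative to mean RNA-seq was -0.36 there and between -0.64 and -0.57 in the other 5 RNC-seq libraries. In that library Tdrd6 lay at -1.11 on the log2 scale, against -1.92 and -2.16 in knockout replicates 1 and 3. Without replicate 2 of the knockout the TE change of Tdrd6 was 0.47 and that of Tdrd9 0.37, and that of Rnf17 ran from -0.82 without replicate 2 of the control to -0.28 without replicate 3. The part of this library and of coding length in the TE values was not tested.

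**Figure D5:**
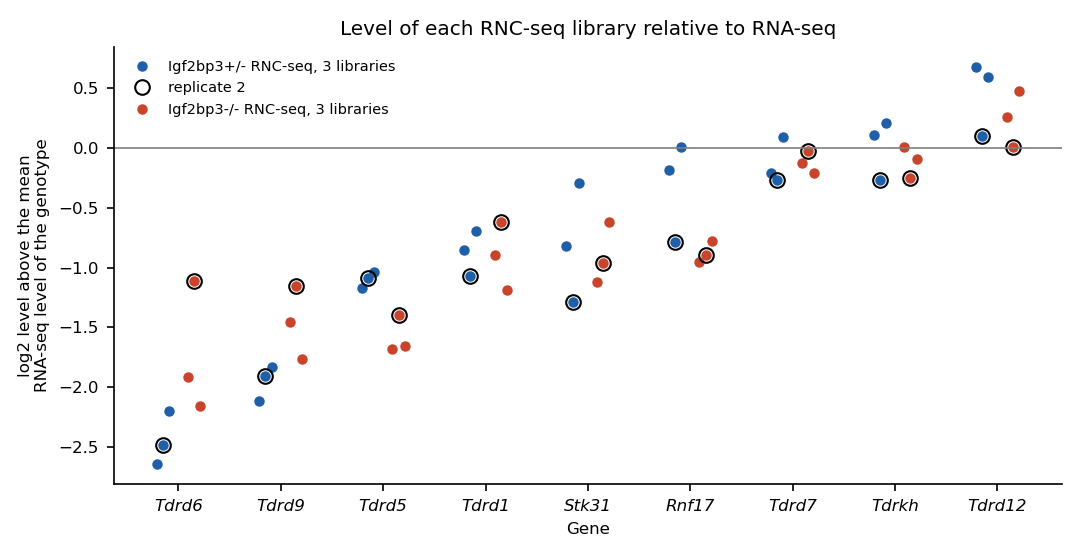
Level of the 9 genes in each of the 6 RNC-seq libraries on the log2 scale, relative to the mean RNA-seq level of the same genotype, with replicate 2 of each genotype circled. For Tdrd6 the knockout libraries spread from -2.16 to -1.11, with replicate 2 highest, and for Rnf17 the control libraries spread from -0.79 to 0.01, with replicate 2 lowest.

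The other genes of the piRNA pathway and chromatoid body gave a wider picture. Of 21 listed, 20 were in the table, and 0 passed the genotype test in RNA-seq, in RNC-seq or in TE (limma), with 4, 1 and 0 at an unadjusted p under 0.05, where 15.7%, 6.48% and 7.13% of all genes stood. Their median log2 change was 0.08 in RNA-seq and 0.08 in RNC-seq, beside 0.05 and 0.13 over all genes. The 3 most abundant were Mael, a chromatoid body and nuage protein needed for transposon silencing, Gtsf1, a zinc-finger partner of PIWI proteins, and Ddx4, the germline helicase VASA. In Igf2bp3+/- RNA-seq they averaged 405 ± 12.9, 331 ± 46.3 and 261 ± 4.13 FPKM (SD, n = 3), each above Tdrd6. Gtsf1 measured 350, 365 and 278 FPKM in the control and 422, 450 and 498 FPKM in the knockout, which do not overlap, at a log2 change of 0.47 (limma adjusted p = 0.171).

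In polysome loading pathway genes passed in both directions. In Igf2bp3+/-, 8 of 19 tested were lower in RNC-seq and 2 were higher (limma), against 25.1% and 18.6% of all genes, with a median log2 change of -0.45. In Igf2bp3-/-, 5 of 20 were lower and 2 higher, against 10.9% and 10.1% of all genes, with a median of -0.37. Named after their values were seen, the 5 lower in the knockout were Tex15, Ddx4, Piwil2, Piwil1 and Mov10l1, all of which were also among the 8 of the control, and the 2 higher were Gtsf1 and Pld6 in both genotypes. Ddx4 read 103, 80.3 and 125 FPKM in control RNC-seq against 266, 260.4 and 257 FPKM in RNA-seq (log2 change -1.37, limma adjusted p = 0.000309). The PIWI genes Piwil1, encoding MIWI, and Piwil2, encoding MILI, stood at -1.30 and -1.37, beside -1.95 for Tdrd9. Pld6, the mitochondrial nuclease that cuts piRNA precursors, stood at 0.95 in the control, the direction of Tdrd12 and not of Tdrd6. Tex15, a large protein of fetal piRNA-directed silencing, stood at -2.72 (interval -3.34 to -2.11), which overlaps the interval of Tdrd6.

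Genes with Tudor domains that act in chromatin, splicing or elsewhere were a second list. Of 20, 19 were in the table and 18 were tested, and 0 passed a genotype test in RNA-seq, RNC-seq or TE (limma), with 4, 1 and 3 at an unadjusted p under 0.05, beside the 15.7%, 6.48% and 7.13% of all genes. In polysome loading 12 of 18 were lower in Igf2bp3+/-, against 25.1% of all genes, with a median log2 change of -0.78, close to the -0.80 of the germline members. In Igf2bp3-/-, 4 of 18 were lower, against 10.9% of all genes, with a median of -0.44 beside -0.90. The 4, named after their values were seen, were Arid4a, Arid4b, Phf20 and Phf20l1, and none of the list was higher in either genotype. No test compared the lists.

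Patterns over the 12 libraries were last compared as Pearson's r of log2(FPKM + 0.1), a description in which most of the variation is the difference between the assays. Among the members, Tdrd6 and Tdrd9 were closest (r = 0.991), and Tdrd1, Tdrd5, Tdrd6 and Tdrd9 all stood at r between 0.924 and 0.991 with each other. Stk31 and Rnf17 formed a second close pair (r = 0.910). Tdrd12 had r below 0 with every member but Tdrkh, with r = -0.780 to Tdrd6 and -0.789 to Tdrd9. Of 11389 genes with a mean FPKM of at least 1 in each assay, the nearest to Tdrd6 was Zan (r = 0.998), to Tdrd9 Akap12 (0.996), to Tdrd1 Cfap221 (0.993), to Tdrd5 Catsperb (0.975) and to Rnf17 Ddx52 (0.971). The nearest to Tdrd12 was Gm28567 (0.978), to Stk31 Mpp5 (0.963), to Tdrd7 Edc3 (0.939) and to Tdrkh Phf6 (0.927). High r was common for Tdrd6, Tdrd9, Tdrd1 and Tdrd5, with 1521, 1457, 1056 and 651 genes above 0.9. Tdrd12, Stk31 and Rnf17 had 307, 229 and 87 such genes, and Tdrd7 and Tdrkh had 3 and 2.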

How the data were processed

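The authors deposited 1 table of FPKM per gene symbol for the 12 libraries. By the methods and the submitters' processing notes, the steps were trimming in Trim Galore 0.6.6, alignment by HISAT2 (GRCm38) and abundance estimates from StringTie 2.1.7. The labels name a directional kit and the methods another library method. No counts are given, so depth is unknown. Of 28668 symbols, 25 turned into dates (0.0995% of summed FPKM) were left out.

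Values were tested as log2(FPKM + 0.1), which understates changes of low genes, with limma 3.58.1 in R 4.3.3: moderated with an intensity trend, two-sided, Benjamini-Hochberg adjusted over all genes with a mean FPKM above 0.1 (in both assays for TE and loading), limit 0.05. Each comparison used the 6 libraries it names, and TE all 12. The code was tested on simulated data. The authors' count test could not be run. P-values of single genes are limma's.

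Transcript features came from 1 representative transcript per gene of GENCODE M21 on GRCm38 (27860 symbols matched), near-identical copies from BLAST 2.17.0 at 95% identity over 50% of the transcript (0 members). The members and lists were chosen with earlier results of these data known. The text names all 9 members, Igf2bp3, pathway genes that passed a genotype test or else the 3 most abundant, and for each member the gene of highest Pearson r. Other list genes named for their loading were chosen after their values were seen. Alternatives were other pseudocounts, filters and scalings, library weights, a replicate block, a fit over 12 libraries, the limits of the study's methods (unadjusted p under 0.05 and log2 change over 1.5) and, added after the data were seen, of its supplement (the same p and fold change over 1.5, a log2 change of 0.585) and leaving out each replicate.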

Additional observations from a re-analysis of the deposited data

How the results depend on the processing

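In RNA-seq, RNC-seq and TE the number of members past the limit was 0 under every alternative but 1: at an unadjusted p under 0.05 and a fold change over 1.5, the limit of the study's supplement, added after the data were seen, 1 member (Tdrd6, log2 change 0.71) passed in TE. Calls over all genes moved more. Over the alternatives, leave-one-out fits included, RNA-seq had 4 to 594 higher and 0 to 515 lower, RNC-seq 0 to 901 and 0 to 201, TE 0 to 955 and 0 to 252, loading 442 to 4630 and 1191 to 5032 in Igf2bp3+/- and 0 to 2593 and 1 to 2927 in Igf2bp3-/-. The highest counts in RNA-seq, RNC-seq, TE and Igf2bp3-/- loading came from the limit of the supplement, which uses unadjusted p. At an adjusted p under 0.05 (limma), the alternatives gave at most 54 higher and 30 lower in RNA-seq. In RNC-seq they gave at most 38 and 10, and in TE at most 2 and 0. In polysome loading, the limit of the study's methods, an unadjusted p under 0.05 with a log2 change over 1.5, left 2 of 5 members in Igf2bp3+/- and 2 of 6 in Igf2bp3-/-, by its larger fold, and that of the supplement left 5 and 6. Leaving out a replicate gave 4 to 5 and 0 to 6, with 0 without Igf2bp3-/- replicate 1 or 3. Within a genotype, the RNA-seq and RNC-seq library of the same number had deviations from the group means that correlated from -0.10 to 0.21, and no source says that a number marks 1 mouse in both assays, so the numbers were not taken as pairs although the assays share animals. The fit with the replicate block gave 0 members in each genotype comparison and 5 and 6 in loading. In the comparisons of genotypes within an assay, the block joined same-numbered libraries of the 2 genotypes, which are different mice. There it moved the RNA-seq calls over all genes from 52 to 4.

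Directions turned only for values near 0, none past the limit, and the cause was not tested. In RNA-seq, Tdrd7 was -0.11 and Stk31 -0.0018 under quantile normalization, and leaving out a replicate gave Tdrd7 -0.043 to 0.10. In RNC-seq, Tdrd7 was -0.088 with libraries centred on their median, -0.12 under quantile normalization and -0.047 with library weights, and leaving out a replicate gave Tdrd7 -0.041 to 0.14, Tdrd12 -0.26 to 0.034 and Stk31 -0.30 to 0.20. In TE, Tdrd7 was -0.12 with centring and -0.060 with weights, and leaving out a replicate gave Tdrd7 -0.067 to 0.12, Tdrd1 -0.21 to 0.18, Tdrkh -0.28 to 0.0090 and Stk31 -0.31 to 0.17. In Igf2bp3+/- loading, Tdrd7 was 0.028 with centring and leaving out a replicate gave Tdrkh -0.12 to 0.085.

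Of the alternative values of single members, 649 kept direction and call, 21 lost the call, 6 gained it and 26 turned direction. Depth is unknown, groups hold 3 libraries, and FPKM is relative to each library, so absolute amounts on polysomes cannot be read from these values.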
